A study of Mus musculus with 10 samples.

Results

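The Schlafen (Slfn) and interferon-induced transmembrane (Ifitm) genes Slfn1, Slfn2, Slfn3, Slfn4, Slfn5, Ifitm1, Ifitm2, Ifitm3 and Ifitm6 were followed in 10 cultures of immortalized mouse marrow progenitors. The 9 genes were chosen by symbol with their levels in these cultures already known, so their levels are described without a test. They have 12 probe sets that carry exactly 1 of the symbols, 8 for Schlafen and 4 for Ifitm genes, of 45101 probe sets on the array. One further probe set is shared by Slfn4 and Slfn3 and was counted apart.

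Total RNA of each culture had been hybridized to an Affymetrix mouse genome array. The cultures were grown in stem cell factor without GM-CSF and differ by the oncogene that immortalized them. Groups with 3 clones each carried the homeobox gene HoxA9, HoxA9 together with its cofactor Meis1 (HoxA9+Meis1), or NUP98-NSD1, a fusion of a nucleoporin with a histone H3 lysine 36 methyltransferase. A single culture carried MLL-ENL, another leukaemia fusion, and gives values only. Mouse strain, age, the vector and whether clones came from separate animals are not stated, so spreads and p-values measure the difference between these cultures. The labels call all cultures myeloid, and all 10 markers of myeloid progenitors were measured. Mean signal of myeloperoxidase (Mpo) was 133675 in HoxA9, 148434 in HoxA9+Meis1, 216914 in NUP98-NSD1 and 221677 in MLL-ENL, while Cd34 was at 679 in HoxA9 and 2723 in MLL-ENL against 49234 in HoxA9+Meis1 and 24618 in NUP98-NSD1. Other markers of the list ran differently. Elane had a mean of 112625 in HoxA9 against 18585 in HoxA9+Meis1 and 169937 in NUP98-NSD1. Cebpa had a mean of 33536 in HoxA9 against 30927 in HoxA9+Meis1 and 21165 in NUP98-NSD1.

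Ifitm proteins sit in endosomal and surface membranes and block the fusion of entering viruses with the cell. Their genes respond to interferons, and Ifitm1 and Ifitm3 are also known from stem and germ cells. Schlafen proteins restrain growth and viral protein synthesis in blood cells, and several of their genes respond to type I interferon through an interferon-stimulated response element. In the mouse the Schlafen genes lie side by side on chromosome 11 and the Ifitm genes followed here on chromosome 7. The mouse gene table lists the Schlafen genes in the order Slfn5, Slfn9, Slfn8, Slfn2, Slfn1, Slfn4, Slfn3, and the Ifitm genes in the order Ifitm2, Ifitm1, Ifitm3, Ifitm6.

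All 9 genes have a promoter in the RefSeq table (GRCm38.p6), of which the 250 bases before the transcription start were read. Both strands were searched for the interferon-stimulated response element (GAAA, any 2 bases, GAAA), held by 2.98% of 32851 promoters, and for the gamma-activated site TTCNNNGAA, held by 7.02%. The promoters of the 4 Ifitm genes are shown because neighbours on one chromosome differed in how they varied between cultures. Ifitm1 (chr7:140967826-140968075, plus strand) and Ifitm3 (chr7:141010745-141010994, minus strand) hold neither motif in this window. Ifitm2 (chr7:140955962-140956211, minus strand) holds 1 response element, 46 to 37 bases before the start. Ifitm6 (chr7:141016893-141017142, minus strand) holds 1 gamma-activated site, 10 to 2 bases before the start. Capitals mark these matches, and every sequence is written 5′ to 3′ on the gene's strand.
Ifitm1: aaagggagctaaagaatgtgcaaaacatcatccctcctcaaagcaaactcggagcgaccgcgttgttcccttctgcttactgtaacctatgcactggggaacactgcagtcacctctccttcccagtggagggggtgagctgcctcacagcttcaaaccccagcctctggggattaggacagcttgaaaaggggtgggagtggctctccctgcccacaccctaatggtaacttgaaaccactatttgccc
Ifitm2: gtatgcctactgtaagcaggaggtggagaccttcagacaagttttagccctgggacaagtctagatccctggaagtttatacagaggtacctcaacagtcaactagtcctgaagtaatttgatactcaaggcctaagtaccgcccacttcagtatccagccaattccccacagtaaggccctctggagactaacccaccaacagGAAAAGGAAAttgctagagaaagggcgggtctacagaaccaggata
Ifitm3: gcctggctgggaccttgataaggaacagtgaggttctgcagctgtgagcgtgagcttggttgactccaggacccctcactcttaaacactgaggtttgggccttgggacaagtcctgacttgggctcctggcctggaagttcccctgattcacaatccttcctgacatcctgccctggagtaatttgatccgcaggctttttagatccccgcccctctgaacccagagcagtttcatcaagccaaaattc
Ifitm6: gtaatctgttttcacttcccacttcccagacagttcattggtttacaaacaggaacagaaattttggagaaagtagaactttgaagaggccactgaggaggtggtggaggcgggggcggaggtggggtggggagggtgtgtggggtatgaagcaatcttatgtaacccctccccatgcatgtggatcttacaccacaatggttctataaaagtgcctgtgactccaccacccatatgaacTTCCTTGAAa

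The promoters of Slfn4, the Schlafen gene with the widest range of signal, and Slfn5, the Schlafen member with a response element, are shown beside them. Slfn4 (chr11:83174936-83175185, plus strand) holds neither motif in this window. Slfn5 (chr11:82951852-82952101, plus strand) holds 1 response element, 155 to 146 bases before the start, in capitals. Slfn1, Slfn2 and Slfn3 hold neither. A match is a run of letters and not a measured binding site.
Slfn4: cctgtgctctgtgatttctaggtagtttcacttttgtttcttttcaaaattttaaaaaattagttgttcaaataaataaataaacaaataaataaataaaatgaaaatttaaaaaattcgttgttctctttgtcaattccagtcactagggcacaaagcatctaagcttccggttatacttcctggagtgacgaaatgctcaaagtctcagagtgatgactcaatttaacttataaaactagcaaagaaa
Slfn5: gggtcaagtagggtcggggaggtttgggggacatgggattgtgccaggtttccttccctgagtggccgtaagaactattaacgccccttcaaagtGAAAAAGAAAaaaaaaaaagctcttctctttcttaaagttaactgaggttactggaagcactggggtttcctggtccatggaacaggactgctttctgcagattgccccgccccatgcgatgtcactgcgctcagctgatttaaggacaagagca

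Signals below are the deposited values of each array, in the order of clones 1, 2 and 3, and are compared within a probe set only. A difference is the difference of mean log2(signal + 32) between groups, and a fold is a fold of signal + 32. For the members and the shared probe set, its standard error (SE) is from the spread of the 3 clones in each of both groups. A probe set passed the filter where at least 3 arrays read above 369, which is the 40th percentile of the whole table. The filter was passed by 10 of the 12 probe sets; both Slfn1 probe sets failed it. In these bulk cultures, fewer cells that express a gene and less RNA per cell cannot be told apart.

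Ifitm1 had the widest range of all members. Its signal was 549, 145 and 807 in the HoxA9 clones, 25937, 76099 and 7650 in the HoxA9+Meis1 clones, 44318, 42171 and 40240 in the NUP98-NSD1 clones, and 384 on the MLL-ENL array. Every HoxA9+Meis1 and NUP98-NSD1 clone was above every HoxA9 clone, and the MLL-ENL culture fell within the HoxA9 range. The mean was 500 ± 334 (SD, n = 3) in HoxA9, 36562 ± 35440 (SD, n = 3) in HoxA9+Meis1 and 42243 ± 2040 (SD, n = 3) in NUP98-NSD1. The difference from HoxA9 was 5.81 (SE 1.17, 56.0-fold) for HoxA9+Meis1 and 6.58 (SE 0.68, 95.6-fold) for NUP98-NSD1, and both share the HoxA9 clones. HoxA9+Meis1 and NUP98-NSD1 overlapped and differed by 0.77 (SE 0.96). MLL-ENL was 101-fold below the NUP98-NSD1 mean and 59.5-fold below the HoxA9+Meis1 mean. Leaving out HoxA9 clone 2 gave 5.15 and 5.92 for the differences from HoxA9. Leaving out HoxA9+Meis1 clone 2 gave 4.998 over HoxA9 and 1.58 between NUP98-NSD1 and HoxA9+Meis1, and leaving out clone 3 gave 6.65 and -0.07. The 3 NUP98-NSD1 clones lay within 1.10-fold of each other, whereas the HoxA9+Meis1 clones spanned 9.95-fold.

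Ifitm3, the best known of the family as a restriction factor for influenza virus, was bright in every culture and graded between groups. It read 12182, 9161 and 9716 in the HoxA9 clones, 23656, 42707 and 11136 in the HoxA9+Meis1 clones, 46814, 50391 and 56246 in the NUP98-NSD1 clones, and 29132 in MLL-ENL. All NUP98-NSD1 clones were above all other cultures, while HoxA9+Meis1 clone 3 fell within the HoxA9 range. NUP98-NSD1 differed from HoxA9 by 2.31 (SE 0.15, 4.95-fold) and from HoxA9+Meis1 by 1.19 (SE 0.57, 2.27-fold). HoxA9+Meis1 differed from HoxA9 by 1.12 (SE 0.57, 2.18-fold), with overlapping clones.

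Ifitm6 is a less studied family member. Its signal was 491, 505 and 875 in the HoxA9 clones, 2299, 3648 and 705 in the HoxA9+Meis1 clones, 3488, 2966 and 8988 in the NUP98-NSD1 clones, and 1026 in MLL-ENL. The NUP98-NSD1 clones were all above the HoxA9 clones, and HoxA9+Meis1 overlapped both groups because of its low clone 3 and high clone 2. The difference of NUP98-NSD1 was 2.85 (SE 0.56, 7.21-fold) from HoxA9 and 1.30 (SE 0.85) from HoxA9+Meis1. HoxA9+Meis1 differed from HoxA9 by 1.54 (SE 0.74). Without HoxA9+Meis1 clone 3 the last 2 differences were 0.64 and 2.21. MLL-ENL lay above the HoxA9 range and 4.31-fold below the NUP98-NSD1 mean.

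Ifitm2, which acts on viruses that enter through late endosomes, was bright and nearly level. It read 51080, 54825 and 52267 in the HoxA9 clones, 56707, 62043 and 54381 in the HoxA9+Meis1 clones, 44302, 47284 and 65698 in the NUP98-NSD1 clones, and 46060 in MLL-ENL. The ranges of all 3 groups of clones overlapped. The differences were -0.03 (SE 0.18) for NUP98-NSD1 against HoxA9, 0.13 (SE 0.06) for HoxA9+Meis1 against HoxA9 and -0.16 (SE 0.18) for NUP98-NSD1 against HoxA9+Meis1. The brightest signal of each array was 138637 or more, and whether the Ifitm2 probe set was near the limit of its own scale was not tested.

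Within HoxA9+Meis1, the same order of clones held for the 4 Ifitm genes, with clone 2 highest and clone 3 lowest. Over the 10 arrays the Pearson correlation of log2(signal + 32) was 0.91 between Ifitm3 and Ifitm6, 0.85 between Ifitm1 and Ifitm6 and 0.77 between Ifitm1 and Ifitm3. It was 0.27 between Ifitm1 and Ifitm2 and 0.03 between Ifitm2 and Ifitm3. These are descriptions over arrays that share 4 groups.

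**Figure D1:**
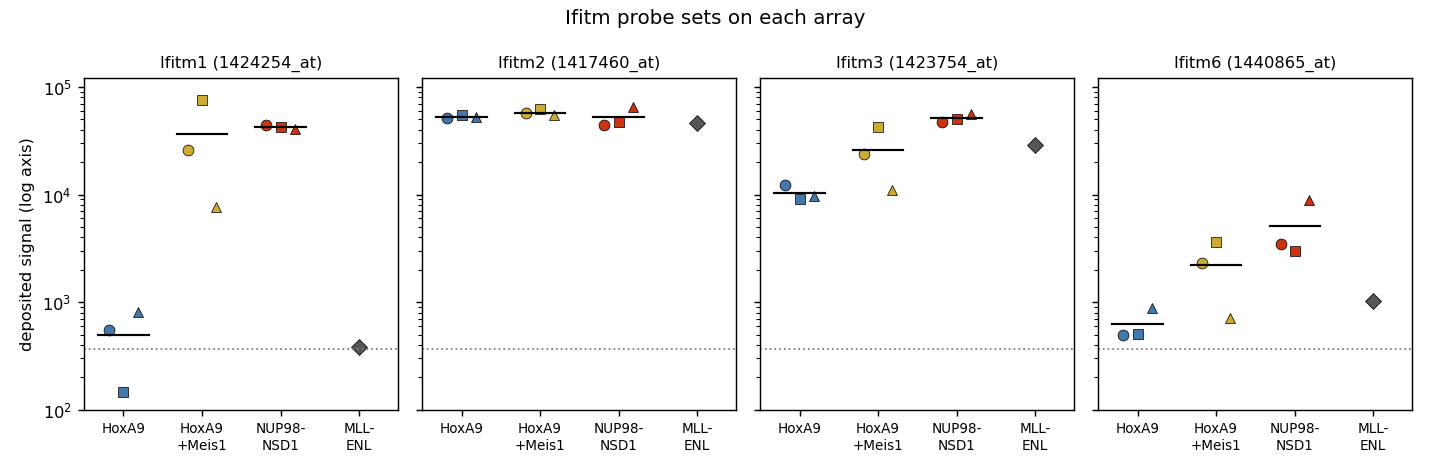
Deposited signal (log axis, arbitrary units) of the 4 Ifitm probe sets on each of the 10 arrays, by group. Circles, squares and triangles are clones 1, 2 and 3, the diamond is the MLL-ENL array, bars are group means and the dotted line is the filter level of 369. Ifitm1 was at or below 807 in all HoxA9 and MLL-ENL cultures and at or above 7650 in all others, while Ifitm2 stayed between 44302 and 65698.

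Slfn4, known as an interferon-induced Schlafen of monocytes and macrophages, ran in the opposite direction to Ifitm1. Its signal was 27647, 27408 and 29383 in the HoxA9 clones, 979, 769 and 1353 in the HoxA9+Meis1 clones, 856, 1435 and 5854 in the NUP98-NSD1 clones, and 11177 in MLL-ENL. All HoxA9 clones were above all other cultures, and the MLL-ENL culture came next. The mean was 28146 ± 1078 (SD, n = 3) in HoxA9, 1033 ± 296 (SD, n = 3) in HoxA9+Meis1 and 2715 ± 2734 (SD, n = 3) in NUP98-NSD1. HoxA9+Meis1 differed from HoxA9 by -4.76 (SE 0.23, 27.1-fold lower) and NUP98-NSD1 by -3.84 (SE 0.82, 14.3-fold lower). Without NUP98-NSD1 clone 3 the latter difference was -4.63. NUP98-NSD1 and HoxA9+Meis1 overlapped and differed by 0.92 (SE 0.85), or by 0.14 without that clone. MLL-ENL was 2.51-fold below the HoxA9 mean, 10.8-fold above the HoxA9+Meis1 mean and 5.68-fold above the NUP98-NSD1 mean. Over the 10 arrays the correlation of Slfn4 with Ifitm1 was -0.88, described as above.

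The probe set shared by Slfn4 and its close paralog Slfn3 ran like the Slfn4 probe set. It read 4334, 4197 and 5557 in the HoxA9 clones, 670, 680 and 542 in the HoxA9+Meis1 clones, 461, 291 and 1077 in the NUP98-NSD1 clones, and 1822 in MLL-ENL. The HoxA9 clones were again above every other culture, and the difference from HoxA9 was -2.83 (SE 0.16) for HoxA9+Meis1 and -3.06 (SE 0.54) for NUP98-NSD1. Signal of this probe set cannot be split between both genes. The probe set of Slfn3 alone was dim, at 329, 237 and 343 in the HoxA9 clones, 452, 315 and 252 in the HoxA9+Meis1 clones, 445, 410 and 445 in the NUP98-NSD1 clones, and 596 in MLL-ENL. All HoxA9 clones were below the filter level, all NUP98-NSD1 clones above it, and NUP98-NSD1 over that level was at least 1.16-fold higher. This probe set was above the filter level on 5 arrays, 4 of them those of the fusion oncogenes. Without the NUP98-NSD1 arrays it would not have passed the filter.

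Slfn2, a short Schlafen needed for the quiescence of T cells and monocytes, was measured well above the filter level on all arrays. It read 1092, 1185 and 2554 in the HoxA9 clones, 1430, 1287 and 895 in the HoxA9+Meis1 clones, 2447, 2757 and 4461 in the NUP98-NSD1 clones, and 4912 in MLL-ENL. The MLL-ENL culture was highest, the NUP98-NSD1 clones were above all HoxA9+Meis1 clones, and HoxA9 clone 3 overlapped the NUP98-NSD1 range. NUP98-NSD1 differed by 1.37 (SE 0.33, 2.59-fold) from HoxA9+Meis1 and by 1.05 (SE 0.46, 2.06-fold) from HoxA9. The difference between HoxA9+Meis1 and HoxA9 was -0.33 (SE 0.43) and turned to 0.05 without HoxA9 clone 3. MLL-ENL was 3.25-fold above the HoxA9 mean, 4.07-fold above the HoxA9+Meis1 mean and 1.57-fold above the NUP98-NSD1 mean.

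Slfn1, which halts the growth of T cells when overexpressed, gave no signal above the filter level on any array. One Slfn1 probe set ranged from 29.5 to 65.5 in HoxA9, from 35.5 to 48.0 in HoxA9+Meis1 and from 24.6 to 195 in NUP98-NSD1, and read 279 in MLL-ENL. The other ranged from 87.0 to 311 in HoxA9, from 153 to 193 in HoxA9+Meis1 and from 140 to 295 in NUP98-NSD1, and read 341 in MLL-ENL. The MLL-ENL array was the highest for both, and no fold is given between values below the filter level.

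Slfn5, a long Schlafen with a helicase-like region, has 3 probe sets that disagreed. The first read 408, 335 and 493 in the HoxA9 clones, 416, 748 and 542 in the HoxA9+Meis1 clones, 1088, 1456 and 870 in the NUP98-NSD1 clones, and 644 in MLL-ENL. On it every NUP98-NSD1 clone was above every other culture, by 1.38 (SE 0.26, 2.61-fold) over HoxA9 and 0.97 (SE 0.31, 1.96-fold) over HoxA9+Meis1. HoxA9+Meis1 and HoxA9 overlapped on it and differed by 0.41 (SE 0.28). On the second the groups overlapped in all comparisons, with values from 249 to 771 in HoxA9, 306 to 530 in HoxA9+Meis1 and 198 to 666 in NUP98-NSD1. On the third they overlapped too, with values from 435 to 729 in HoxA9, 638 to 971 in HoxA9+Meis1 and 418 to 651 in NUP98-NSD1. MLL-ENL was the lowest array on the second, at 111, and on the third, at 270. The higher Slfn5 level in NUP98-NSD1 therefore rests on 1 of 3 probe sets.

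**Figure D2:**
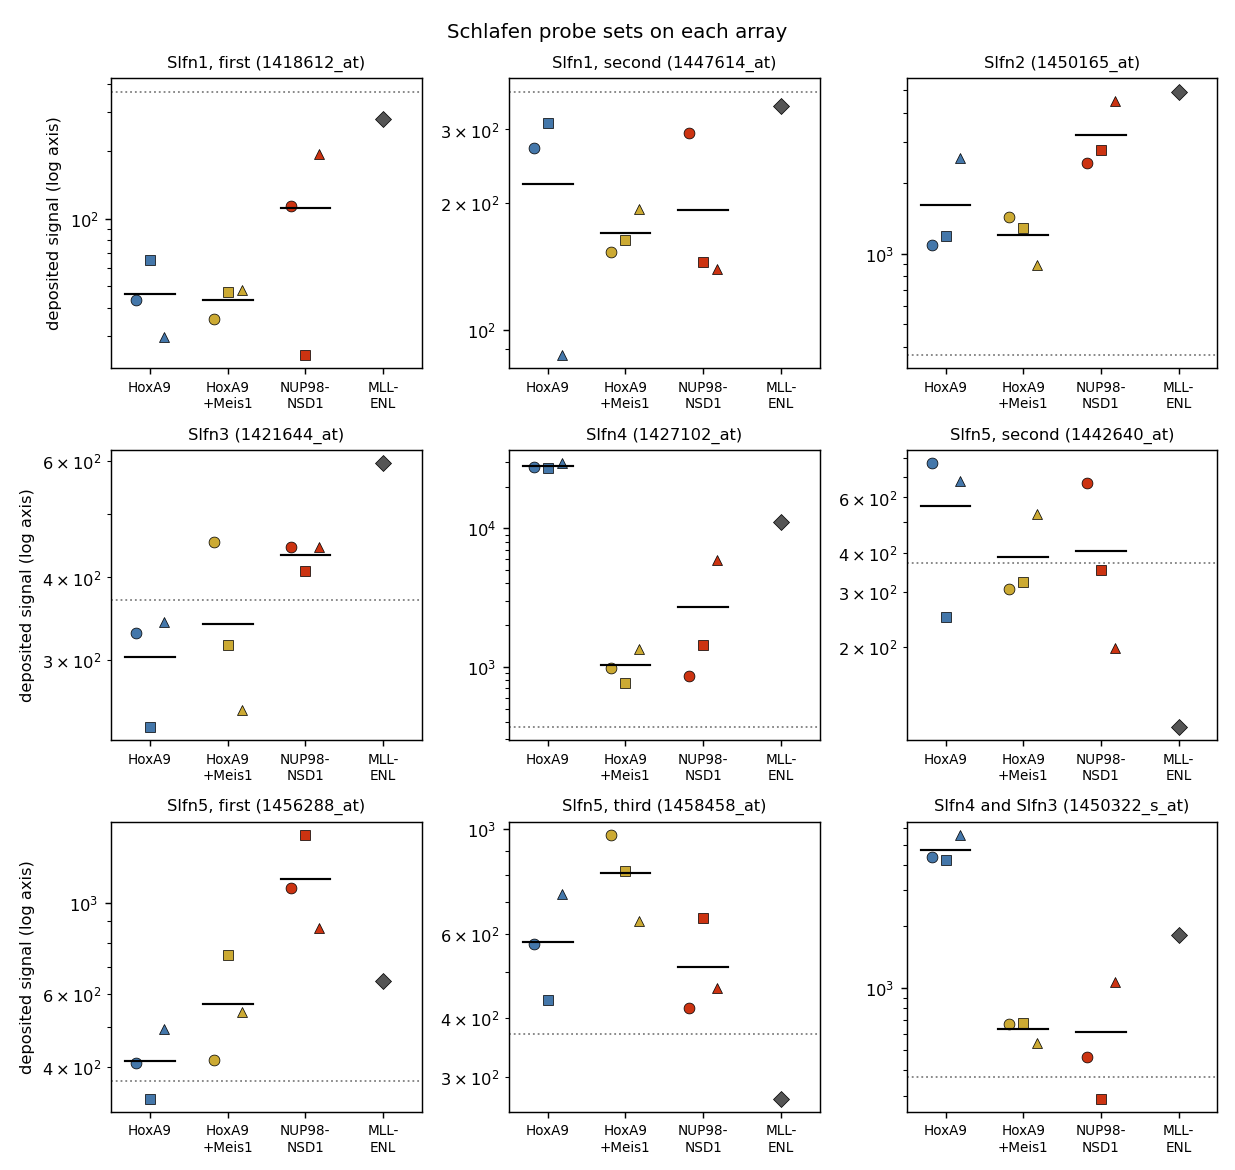
Deposited signal (log axes that differ between panels, arbitrary units) of the 8 Schlafen probe sets and the probe set shared by Slfn4 and Slfn3, on each array by group. Circles, squares and triangles are clones 1, 2 and 3, the diamond is MLL-ENL, bars are group means and the dotted line is the filter level of 369. Slfn4 was between 27408 and 29383 in HoxA9 and at most 11177 elsewhere, and the 3 Slfn5 panels differ in their order of groups.

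Counted over the 12 probe sets, 5 were higher in all NUP98-NSD1 than in all HoxA9 clones and 1 was lower, against 16.2% and 19.6% of all probe sets. The 5 are those of Ifitm1, Ifitm3, Ifitm6 and Slfn3 and the first of Slfn5, and the 1 is Slfn4. Between HoxA9+Meis1 and HoxA9, Ifitm1 alone did not overlap on the higher side and Slfn4 alone on the lower side, against 10.8% and 12.2% of all probe sets. Between NUP98-NSD1 and HoxA9+Meis1, 3 probe sets (Ifitm3, Slfn2 and the first of Slfn5) were higher without overlap and 0 were lower, against 17.2% and 19.3%. The members were chosen on these comparisons, so nothing is read from their counts. The counts also turn on single clones: without HoxA9+Meis1 clone 3, 5 probe sets were higher than HoxA9 without overlap, and without HoxA9 clone 3, 4 were. Leaving out a clone can only raise such counts, for any probe set, and the share of all probe sets was not computed for them. MLL-ENL differed more than 2-fold from the HoxA9 mean upward for 3 of 12 probe sets (Ifitm3, Slfn2 and a Slfn1 probe set) and downward for 2 (Slfn4 and the second of Slfn5), against 8% and 19% of all probe sets. Against HoxA9+Meis1 the counts were 3 higher (Slfn2, Slfn4 and the same Slfn1 probe set) and 3 lower (Ifitm1 and the second and the third of Slfn5), against 9.63% and 19.6%. Against NUP98-NSD1 they were 2 higher (Slfn4 and that Slfn1 probe set) and 3 lower (Ifitm1, Ifitm6 and the second of Slfn5), against 7.14% and 15.7%. These counts, of members and of all probe sets, include values below the filter level. The Slfn1 probe set is one of these, and without it the higher counts are 2, 2 and 1.

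Some technical measures moved with the groups. The 18 probe sets of spiked hybridization controls had a mean log2 signal of 14.01 to 14.13 on the arrays of both fusion oncogenes and of 13.18 to 13.42 on the HoxA9 and HoxA9+Meis1 arrays, so the array set and the group cannot be told apart for comparisons across them. The 3′ to 5′ ratio of Actb was 1.18 to 1.43 on the former and 1.09 to 1.17 on the latter. The Ifitm1 and Slfn4 differences between HoxA9+Meis1 and HoxA9, and those between NUP98-NSD1 and MLL-ENL, were between arrays with control signal in the same range. The labels give no batch, so these sets of arrays are told apart by control signal only. A technical part in the differences was not tested. As a check of the labels, the Meis1 probe set with the widest range read 16.7 to 27.9 in HoxA9, 558 to 687 in HoxA9+Meis1, 4214 to 6267 in NUP98-NSD1 and 10160 in MLL-ENL. The other 2 Meis1 probe sets were not higher in HoxA9+Meis1, with means of 826 and 718 in HoxA9 against 744 and 620. Of the Hoxa9 probe sets, one had a mean of 43343 in HoxA9 and 94752 in HoxA9+Meis1 against 7379 in NUP98-NSD1 and 6478 in MLL-ENL. The other ran the opposite way, at 36.4 and 27.2 against 33622 and 35209.

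Markers of other blood cells differed between cultures too, some along with members and some not. The summed signal of 9 neutrophil markers was 439676, 508550 and 1007950 in the NUP98-NSD1 clones, against 15230 to 75813 in HoxA9 and 20508 in MLL-ENL. NUP98-NSD1 clone 3, with the highest neutrophil sum, was also the NUP98-NSD1 clone with the most Ifitm2, Ifitm3, Ifitm6, Slfn2 and Slfn4 signal. It was the lowest of these clones for Ifitm1 and for the first and the second Slfn5 probe set. In HoxA9+Meis1 the neutrophil sum was 94957, 71277 and 10400, and the sum of 9 B cell markers was 15650, 16309 and 4866 against 4275 to 5458 in HoxA9, with clone 3 lowest in both as for the Ifitm genes. Cd79b, Vpreb1 and Igll1 made up most of that B cell difference in means. By limma 0 of the 9 B cell markers were called in either direction between HoxA9+Meis1 and HoxA9, against 4.61% of all genes higher and 5.06% lower. At an unadjusted p under 0.05, 2 of these markers were higher and 0 lower. Of the neutrophil markers, 8 of 9 were higher in NUP98-NSD1 than in HoxA9 by limma (adjusted p under 0.05), and 0 were lower, also at an unadjusted p under 0.05. Of all genes, 13.3% were called higher and 18.2% lower in this comparison. Among the 8, Camp and Cxcr2 passed the filter only through the NUP98-NSD1 arrays, and 6 of 7 were higher without them. In MLL-ENL the neutrophil markers differed from each other: S100a8 read 12818, Mmp8 4034 and Chil3 1818, but S100a9 91.4, Camp 42.4 and Ltf 23.2. The sum of 9 dendritic cell markers was 54517, 47557 and 30709 in HoxA9+Meis1 against 7575 to 11001 in the HoxA9 and NUP98-NSD1 clones. Flt3 (mean 29802 against 1060 in HoxA9) and Itgax (6524 against 626) made up most of it, while H2-Aa, for example, had a mean of 270 against 680. Flt3 and Itgax were the only 2 of the 9 called higher than in HoxA9 by limma, and 0 were called lower. The shares of all genes called were 4.61% higher and 5.06% lower. The sum of 8 mast cell markers was 294189, 272507 and 61991 in NUP98-NSD1 against 7666 to 12352 in HoxA9, 16993 to 26379 in HoxA9+Meis1 and 4128 in MLL-ENL. Cpa3 was its largest part, with a mean of 74819 in NUP98-NSD1 against 774 in HoxA9, whereas Tpsb2 was nearly level at 307 against 275. The sum of 8 monocyte and macrophage markers was 151589 to 170822 in HoxA9, 165764 to 199328 in HoxA9+Meis1, 159137 to 166975 in NUP98-NSD1 and 282064 in MLL-ENL. By limma 3 of the 8 (Cd68, Ctss and Cx3cr1) were higher in HoxA9+Meis1 than in HoxA9 and 0 lower, against 4.61% and 5.06% of all genes. At an unadjusted p under 0.05, 4 were higher and 2 lower. T and NK cell markers passed the filter for 3 of 10 genes only. The part of these cells in the members' levels was not tested.

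The family genes outside the 9 were tested in a limma fit of all 14233 genes, with Benjamini-Hochberg adjustment within each comparison and a call at an adjusted p under 0.05. For these and all other genes tested by limma, the SE is that of the fit, which draws on the spread of all groups and on other genes. Of 8 such genes, 5 had a probe set of their own above the filter. They and the gene lists that follow were chosen, like the markers above, with earlier results of these data known, so their calls are descriptions and no independent evidence. NUP98-NSD1 against HoxA9 gave 2 of 5 higher and 0 lower, against 13.3% and 18.2% of all genes. For HoxA9+Meis1 against HoxA9 the counts were 0 higher and 1 lower, against 4.61% and 5.06%. NUP98-NSD1 against HoxA9+Meis1 gave 3 higher and 0 lower, against 14.2% and 18.2%. One of the higher genes in both NUP98-NSD1 comparisons is Slfn10-ps, which passed the filter only through the NUP98-NSD1 arrays and so could only count as higher; without it 1 and 2 of 4 were higher. At an unadjusted p under 0.05 by limma, 2 were lower in NUP98-NSD1 than in HoxA9, 0 were higher in HoxA9+Meis1 than in HoxA9, and 1 was lower in NUP98-NSD1 than in HoxA9+Meis1. With arrays shifted to a common median the lower calls over all genes fell, and the split into higher and lower became 2039 and 1126 in place of 1887 and 2596 for NUP98-NSD1 against HoxA9, 446 and 313 in place of 656 and 720 for HoxA9+Meis1 against HoxA9, and 2029 and 1290 in place of 2016 and 2592 for NUP98-NSD1 against HoxA9+Meis1.

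Slfn8, Slfn9 and Slfn10-ps lie inside the Schlafen cluster. Slfn8, a long Schlafen, read 495, 839 and 1169 in the HoxA9 clones, 973, 1261 and 648 in the HoxA9+Meis1 clones, 2801, 2902 and 1869 in the NUP98-NSD1 clones, and 1989 in MLL-ENL. It rose in NUP98-NSD1 by 1.61 (SE 0.35, adjusted p = 0.00659) over HoxA9 and by 1.39 (SE 0.35, adjusted p = 0.0127) over HoxA9+Meis1. Slfn9, its neighbour, read 1579, 3510 and 3221 in the HoxA9 clones, 968, 1126 and 742 in the HoxA9+Meis1 clones, 3931, 3499 and 5415 in the NUP98-NSD1 clones, and 4108 in MLL-ENL. HoxA9+Meis1 was lower than all other cultures, with a difference of -1.46 (SE 0.30, adjusted p = 0.0140) from HoxA9, and NUP98-NSD1 was higher than HoxA9+Meis1 by 2.14 (SE 0.30, adjusted p = 7.30e-04). The call against HoxA9 was lost without HoxA9 clone 2 (adjusted p = 0.0604) or clone 3 (0.0556) and with the mean of both Slfn9 probe sets (0.0898), over a range of 0.00214 to 0.0898 in all alternatives. The second Slfn9 probe set overlapped in every comparison.

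Slfn10-ps, a Schlafen pseudogene inside the cluster, was below the filter level in all HoxA9 and HoxA9+Meis1 clones and read 967, 564 and 514 in the NUP98-NSD1 clones and 150 in MLL-ENL. Against that level it was at least 1.71-fold higher in NUP98-NSD1. Since it entered the fit only through those clones, no test is given for it. Ifitm7 ranged from 1075 to 1913 in HoxA9 and from 312 to 695 in NUP98-NSD1, and Ifitm10 was at most 526 on every array; neither passed the test in any comparison. Slfnl1 and Ifitm5 did not pass the filter. In the RefSeq promoters, Slfn9 holds the response element on the opposite strand, read as TTTCGTTTTC on the gene's strand, 45 to 36 bases before its start. Slfn8 holds the same run 48 to 39 bases before 1 of its listed starts and 136 to 127 bases before the other.

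Interferon response genes other than the members, a list of 40 written from textbook knowledge, were called in both directions in the NUP98-NSD1 comparisons. In HoxA9+Meis1 against HoxA9 they were called only lower. Of the 33 measured, NUP98-NSD1 had 6 higher and 7 lower than HoxA9, with a median difference of 0.28 against -0.14 over all genes. HoxA9+Meis1 had 0 higher and 5 lower than HoxA9, with a median of -0.09 against -0.02 (limma, with 2 higher and 7 lower at an unadjusted p under 0.05). NUP98-NSD1 had 7 higher and 6 lower than HoxA9+Meis1, with a median of 0.60 against -0.13. The shares of all genes called higher and lower were 13.3% and 18.2% for NUP98-NSD1 against HoxA9, and 4.61% and 5.06% for HoxA9+Meis1 against HoxA9. For NUP98-NSD1 against HoxA9+Meis1 they were 14.2% and 18.2%. The count of 5 lower in HoxA9+Meis1 became 3 without HoxA9+Meis1 clone 1 or 2, with the common median or without the intensity trend.

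The largest called changes of this list ran both ways. Gbp3, an interferon-induced guanylate-binding protein, fell in NUP98-NSD1 against HoxA9 by 2.54 on the log2 scale (SE 0.16, adjusted p = 1.48e-05, limma), and in HoxA9+Meis1 by 1.32 (SE 0.16, adjusted p = 9.18e-04). Tap1, a peptide transporter of antigen presentation, fell in NUP98-NSD1 by 1.47 (SE 0.12, adjusted p = 3.96e-05). Zbp1, a sensor of viral nucleic acid, was below the filter level in all HoxA9 clones and at least 1.92-fold higher in NUP98-NSD1. It was above that level on 1 HoxA9+Meis1, 3 NUP98-NSD1 and 1 MLL-ENL array, so without the NUP98-NSD1 arrays it would not have passed the filter. Against HoxA9 it could thus only count as higher, and no test is given for it. Its call, 1 of the 6 higher, was lost without HoxA9 clone 1 or 2 or NUP98-NSD1 clone 1. Rsad2, the antiviral enzyme viperin, fell in NUP98-NSD1 by 1.79 (SE 0.50, adjusted p = 0.0219). That call was lost without HoxA9 clone 1 or 3 or NUP98-NSD1 clone 1, with a common median, with only the 2 groups in the fit and with the mean of its probe sets (adjusted p from 0.00179 to 0.415 over all alternatives), and the difference was -2.38 without NUP98-NSD1 clone 3.

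Against HoxA9, HoxA9+Meis1 was lower in Oas1a, an oligoadenylate synthetase (difference -3.13, SE 0.32, adjusted p = 3.49e-04, limma) and in Ifih1, a sensor of double-stranded RNA (-1.16, SE 0.18, adjusted p = 0.00333). Ifit2, an inhibitor of viral translation, was lower too (-1.13, SE 0.27, adjusted p = 0.0262), a call lost without HoxA9 clone 2 or 3 or HoxA9+Meis1 clone 1 or 2, with a common median and without the trend, over a range of 0.00762 to 0.100. Against HoxA9+Meis1, NUP98-NSD1 was higher in Oas1a by 2.09 (SE 0.32, adjusted p = 0.00110) and in Ifit2 by 1.73 (SE 0.27, adjusted p = 0.00119). It was lower in Psmb8, an immunoproteasome subunit (-1.39, SE 0.13, adjusted p = 1.09e-04), and in Rsad2 (-1.97, SE 0.50, adjusted p = 0.0137), whose difference was -2.57 without NUP98-NSD1 clone 3 and was not called with the mean of its probe sets (0.177, the highest of a range from 0.00132).

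**Figure D3:**
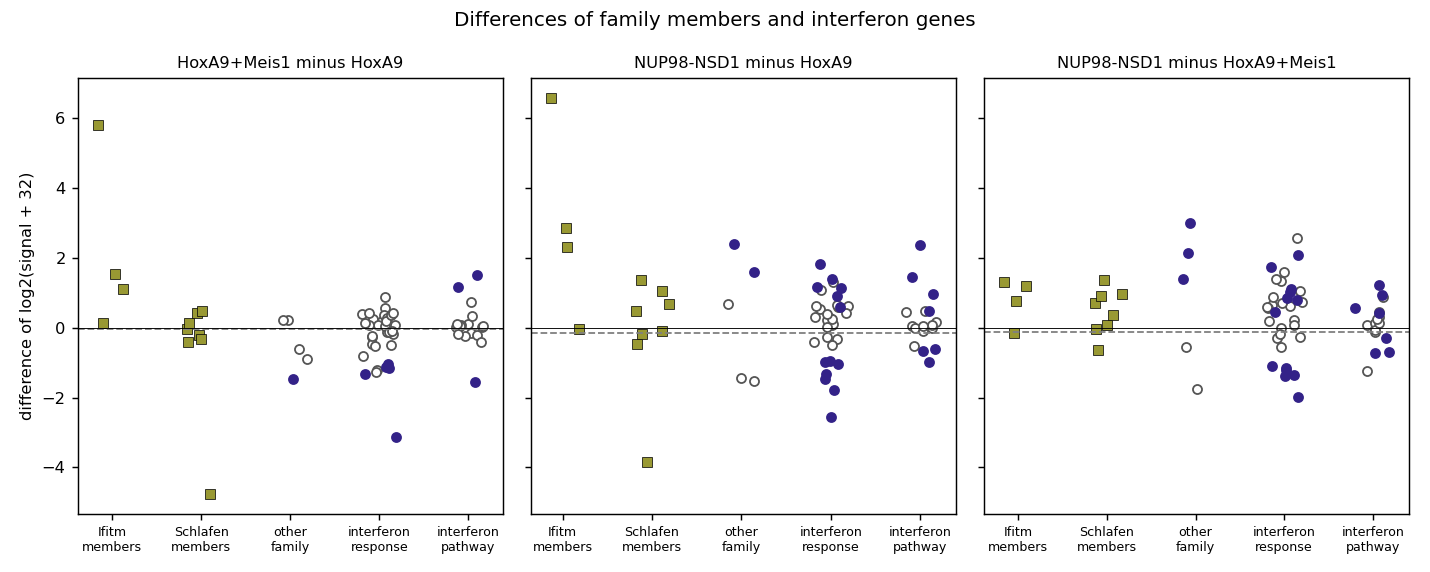
Differences of log2(signal + 32) between groups (vertical axis) for the probe sets of the members (squares, not tested) and, by gene, for the other family genes, interferon response genes and interferon pathway genes (circles, filled where called by limma at an adjusted p under 0.05). The dashed line is the median of all genes. Ifitm1 lies at 5.81 and 6.58 and Slfn4 at -4.76 and -3.84 in the comparisons with HoxA9, outside the range of the interferon response genes in both.

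Of 18 receptors, kinases and transcription factors of the interferon pathway, 17 were measured. By limma NUP98-NSD1 had 4 higher and 3 lower than HoxA9, with a median difference of 0.06 against -0.14 over all genes. HoxA9+Meis1 had 2 higher and 1 lower than HoxA9, with a median of 0.05 against -0.02. NUP98-NSD1 had 4 higher and 3 lower than HoxA9+Meis1, with a median of 0.14 against -0.13. The shares of all genes called, higher and lower, were 13.3% and 18.2%, 4.61% and 5.06%, and 14.2% and 18.2% in these comparisons. The transcription factor Irf2, which binds the response element, rose against HoxA9 by 2.38 in NUP98-NSD1 (SE 0.18, adjusted p = 3.43e-05) and by 1.16 in HoxA9+Meis1 (SE 0.18, adjusted p = 0.00303), and NUP98-NSD1 was higher than HoxA9+Meis1 by 1.22 (adjusted p = 8.49e-04). Irf5, another factor of the family, rose against HoxA9 by 1.46 in NUP98-NSD1 (adjusted p = 4.38e-04) and by 1.52 in HoxA9+Meis1 (adjusted p = 8.62e-04). With the mean of its probe sets neither Irf5 call held (0.254 and 0.133, the highest of ranges from 1.66e-04 and 4.03e-04).

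Among receptors and kinases, Ifngr1, a chain of the interferon gamma receptor, was lower than in HoxA9 in NUP98-NSD1 (difference -0.98, adjusted p = 0.00316, limma) and in HoxA9+Meis1 (-1.55, adjusted p = 7.05e-04). The kinase Jak1 was higher in NUP98-NSD1 by 0.97 over HoxA9 (adjusted p = 0.00114) and by 0.95 over HoxA9+Meis1 (adjusted p = 0.00122). The type I interferon receptor chains Ifnar1 and Ifnar2 were lower in NUP98-NSD1 than in HoxA9+Meis1, with differences of -0.71 (adjusted p = 0.00263, limma) and -0.68 (adjusted p = 0.00518). The Ifnar1 call was lost with the mean of its probe sets (0.325, range 0.00171 to 0.325) and the Ifnar2 call with a common median (0.0899, range 0.00282 to 0.0899). The count of 4 higher in NUP98-NSD1 than in HoxA9+Meis1 became 2 without HoxA9+Meis1 clone 2 or 3 or NUP98-NSD1 clone 1 or 2.

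The 3 genes most like each member were found among 14225 other genes by the Pearson correlation of log2(signal + 32) over the 10 arrays, a description in which all genes share the 4 groups. Most like Ifitm1 were Cd27, a receptor of the tumour necrosis factor receptor family (r = 0.99), Ipcef1 (0.98) and Adgrg1, an adhesion receptor (0.96). Like Ifitm1, Cd27 read 352, 66.3 and 402 in the HoxA9 clones and 366 in MLL-ENL, against 7740, 10084 and 2553 in the HoxA9+Meis1 clones and 7378, 9170 and 4610 in the NUP98-NSD1 clones. Both were lowest in HoxA9 clone 2 and, within HoxA9+Meis1, lowest in clone 3. Most like Slfn4 were the kinase Stk16 (0.97), the lysosomal phosphatase Acp2 (0.97) and the phospholipase Plcb1 (0.97). Their changes were smaller: Plcb1 read 3012, 3000 and 2928 in the HoxA9 clones, 644, 877 and 841 in the HoxA9+Meis1 clones, 716, 1152 and 1159 in the NUP98-NSD1 clones, and 2005 in MLL-ENL.

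**Figure D4:**
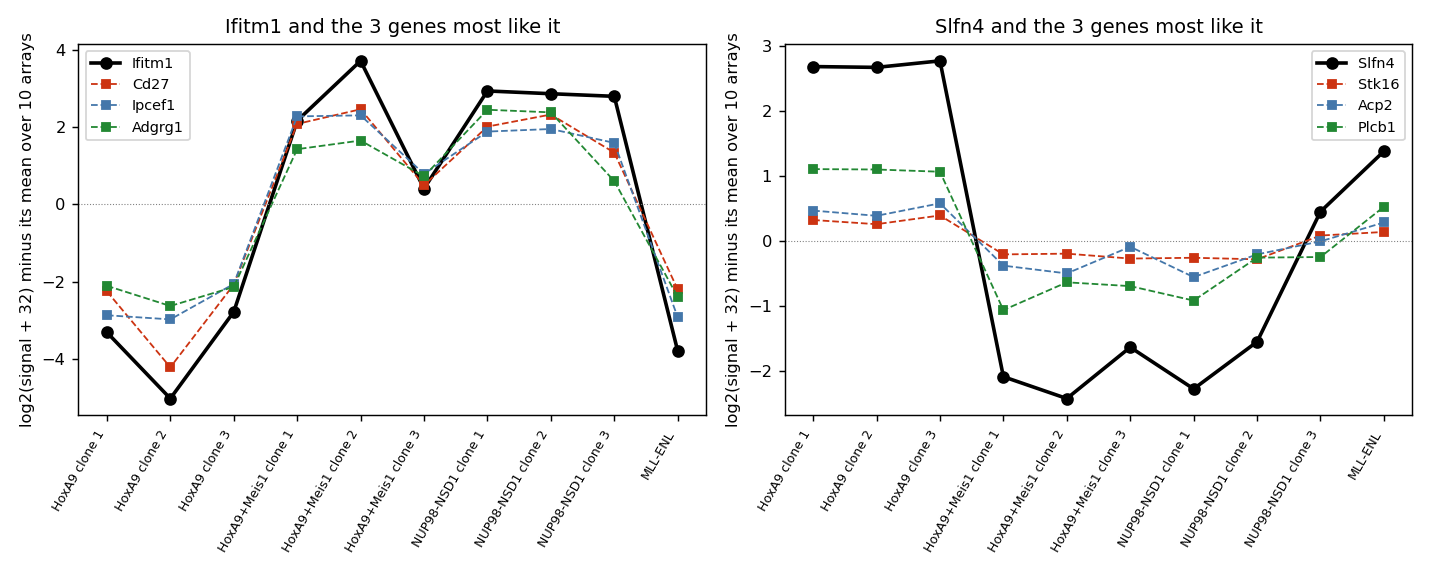
Difference of log2(signal + 32) from its own mean over the 10 arrays (vertical axis) for Ifitm1 and Slfn4 (black) and the 3 genes most like each, on each array; the lines only join points of 1 gene, since arrays have no order. Ifitm1 and its 3 genes are low in the HoxA9 clones and MLL-ENL; Slfn4 and its 3 genes are high in the HoxA9 clones, with the MLL-ENL array next among Slfn4 values.

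For the other members the likest genes were as follows. Ifitm3 went with Map3k7 (0.96), Rad54l (0.95) and Bmf (0.94). The likest to Ifitm6 were Slc25a12 (0.97), Cd52 (0.95) and Cxcr4 (0.92). Ifitm2 went with Clic1 (0.92), Slc35e1 (0.92) and Scamp2 (0.91). Slfn2 was most like Incenp (0.97), Iqgap3 (0.96) and Lrrfip2 (0.95). For Slfn3 they were B4galt5 (0.93), Baz2b (0.91) and Lrp5 (0.91), and for the brightest Slfn5 probe set, 4930486L24Rik (0.96), Cbfa2t3 (0.95) and Mcm8 (0.95).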

How the data were processed

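Expression was measured in 10 cultures on Affymetrix arrays. Deposited values are linear intensities, 1 for each probe set of an array. The software that made them is not given in the sources used for this text. The authors' values had the same trimmed mean on every array (2500 without the lowest and highest 2%), so they were used without further normalization. All value columns belong to samples. Gene symbols came from the platform annotation, updated by Entrez ID for 34754 probe sets; 34945 carry 1 symbol, 932 several and 9160 none, besides 64 control probe sets.

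Values were analysed on the log2 scale as log2(signal + 32). Probe sets above the 40th percentile of all values (369) on at least 3 of 10 arrays were kept, and a gene was represented by its brightest kept probe set with exactly 1 symbol, which gave 14233 genes. The test was limma (version 3.58.1, R 4.3.3), with 4 group means, eBayes with an intensity trend and 6 residual degrees of freedom, in 3 comparisons, two-sided. The fit takes the spread of the MLL-ENL array to be that of the clones. The fit was tested on simulated data with normal noise of each gene's own spread. For each size of change, 50 of 14233 genes were changed, far fewer than were called in these data, so the shares found may not carry over. The fit found 38% to 52% of changes of 1 on the log2 scale in the 3 comparisons, 8% to 12% of changes of 0.5 and 90% to 94% of changes of 3. A gene that was not called may therefore still differ. The members and gene lists were chosen with earlier results of these data known. Members, which were chosen on these comparisons, have no p-values; those of listed genes come from the fit of all genes and are descriptions. For a fold given as a lower bound, the dimmer group was put at the filter level. The number of arrays limits the precision.

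Named were all members and other family genes, up to 4 called genes of each list and comparison with the largest change, the 3 genes most correlated with each member, and Hoxa9 and Meis1; cell type markers and genes beside the clusters are named for context, chosen after their values were seen. Same-numbered clones did not deviate together, so numbers were not used to pair samples. Alternatives were quantile normalization, arrays shifted to one median, an offset of 1 or 100, the filter dropped or raised to the 60th percentile, other choices of probe sets, no trend, only the 2 groups compared, the clone number as a block and leaving out each clone. Coordinates are those of RefSeq promoters; the deposited table names no build. Plots were made in Python 3.11.15 (matplotlib 3.10.9).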

Additional observations from a re-analysis of the deposited data

How the results depend on the processing

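With arrays shifted to a common median, lower calls over all genes numbered 1126 in place of 2596 (NUP98-NSD1 against HoxA9), 313 in place of 720 (HoxA9+Meis1 against HoxA9) and 1290 in place of 2592 (NUP98-NSD1 against HoxA9+Meis1). Lower interferon pathway genes were then 1 in place of 3 in both NUP98-NSD1 comparisons, lower response genes in HoxA9+Meis1 3 in place of 5, and 2 members in place of 1 were higher in HoxA9+Meis1 than in HoxA9 without overlap. Testing every probe set, which tests more features, gave 3815 higher and 5164 lower, 1051 higher (HoxA9+Meis1 against HoxA9), and 4262 higher and 5313 lower. Without the trend HoxA9+Meis1 against HoxA9 gave 357 higher, 416 lower and 3 lower response genes, and the mean of probe sets gave 1 higher pathway gene in place of 2. A fit of only the 2 groups and the replicate block each called 1 response gene higher in HoxA9+Meis1, in place of 0; the block moved no other count by over 1.5 times. Of 198 count values under these alternatives, 180 were within 1.5 times. The cause was not tested for the others except where the construction is given.

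Leaving out each clone in turn gave, for higher and lower calls, 1420 to 1963 and 1675 to 2570 (NUP98-NSD1 against HoxA9), 339 to 545 and 375 to 660 (HoxA9+Meis1 against HoxA9) and 1566 to 1987 and 1671 to 2523 (NUP98-NSD1 against HoxA9+Meis1). The largest drops came without HoxA9 clone 2 (1675; 395 and 375), HoxA9 clone 3 (449), HoxA9+Meis1 clone 1 (371, 417 and 1717) and clone 2 (339, 409 and 1671). Response genes lower in HoxA9+Meis1 numbered 3 to 5, and pathway genes higher in NUP98-NSD1 than in HoxA9+Meis1 2 to 4. Members without overlap numbered 5 to 6 higher and 1 to 2 lower, 1 to 5 and 1 to 2, and 3 to 5 and 0 to 1 in the same order of comparisons. With a clone left out these counts can only rise, and the share of all probe sets was not computed for them. Of 36 member differences, 26 kept their sign under all 11 alternatives. The clone number as a block is among these and cannot change a difference of means, since each group has 3 clones. Ifitm1 stayed at 5.92 to 7.04 and 4.998 to 6.65 and Slfn4 at -4.63 to -3.26 and -4.97 to -4.57 against HoxA9. Sign changes included Ifitm1 between NUP98-NSD1 and HoxA9+Meis1 (-0.07 without HoxA9+Meis1 clone 3). With the mean of probe sets, Ifnar1 (0.11 in place of -0.60, NUP98-NSD1 against HoxA9) and Ifi35 (-0.26 in place of 0.45, NUP98-NSD1 against HoxA9+Meis1) turned their sign.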

Other observations

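Genes that flank the clusters were set beside the members, 5 on each side with a kept probe set, tested in the same limma fit. Over all genes the shares called higher and lower were 13.3% and 18.2% for NUP98-NSD1 against HoxA9, 4.61% and 5.06% for HoxA9+Meis1 against HoxA9, and 14.2% and 18.2% for NUP98-NSD1 against HoxA9+Meis1, and with 10 genes a cluster nothing is read from the counts. Beside the Schlafen cluster, 2 of 10 were higher and 3 lower in NUP98-NSD1 than in HoxA9, and 3 were higher and 3 lower than in HoxA9+Meis1. In HoxA9+Meis1 against HoxA9, 0 of these 10 were called in either direction by limma, with 1 higher and 1 lower at an unadjusted p under 0.05. Taf15, an RNA-binding protein gene beyond Slfn3, was higher in NUP98-NSD1 than in HoxA9 by 0.85 (adjusted p = 0.00714) and than in HoxA9+Meis1 by 1.07 (adjusted p = 0.00206).

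Beside the Ifitm cluster, 2 of 10 were higher and 3 lower in NUP98-NSD1 than in HoxA9, 1 was higher and 0 lower in HoxA9+Meis1 than in HoxA9 (2 and 0 at an unadjusted p under 0.05, limma), and 2 were higher and 4 lower in NUP98-NSD1 than in HoxA9+Meis1. Sigirr, an inhibitory receptor of the interleukin 1 family, was higher in HoxA9+Meis1 than in HoxA9 by 1.37 (SE 0.13, adjusted p = 2.09e-04) and lower in NUP98-NSD1 than in HoxA9+Meis1 (mean signal 7848 in HoxA9+Meis1 and 3905 in NUP98-NSD1, adjusted p = 4.57e-04). B4galnt4, a glycosyltransferase gene, was higher in NUP98-NSD1 than in HoxA9 by 1.83 (SE 0.27, adjusted p = 9.86e-04) and than in HoxA9+Meis1 by 1.06 (adjusted p = 0.0140). Ric8a was higher by 1.38 (adjusted p = 3.99e-04) and 1.10 (adjusted p = 0.00119) in the same comparisons.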
